A study of Homo sapiens with 13 samples.

Results

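Aminoacyl-tRNA synthetases are the enzymes that join each amino acid to its transfer RNA. The genes described here were the protein-coding genes of GENCODE version 44 whose symbol is a one-letter amino acid code followed by ARS1, ARS2 or ARS3, together with EPRS1, FARSA and FARSB. The rule found 38 genes of 20033 protein-coding genes, spread over 15 chromosomes. Of these, 18 carry a symbol ending in 1 and are called cytosolic here, 17 carry a symbol ending in 2 and are called mitochondrial, and the other 3 are FARSA, FARSB and TARS3. The symbol is a guide and not a measurement of location, since GARS1 and KARS1 each make the enzyme of both compartments.

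Peaks came from MOLM-13 cells, a human line grown from acute myeloid leukemia, without a stated treatment. Antibodies were directed at PTBP1, an RNA-binding protein that regulates splicing, at RUNX1, a DNA-binding transcription factor of blood cells, and at H3K27me3, a histone mark of repressed chromatin, with IgG as the background control. The series held 13 libraries, namely 2 biological replicates of PTBP1 and of RUNX1 in both CUT&Tag and CUT&RUN, and, for H3K27me3, 2 CUT&RUN libraries. IgG had 2 libraries in CUT&RUN and 1 in CUT&Tag. In CUT&Tag an antibody-tethered transposase inserts sequencing adapters near the target, and in CUT&RUN a tethered nuclease cuts there. What was analysed was 1 list of 9370 PTBP1 peaks and 1 list of 7688 RUNX1 peaks on the hg38 build, so no value has a replicate error, and every interval covers counting error only. Values of single libraries were not analysed here.

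In the cytosol, synthetases supply charged transfer RNA to the main translation machinery, and several of them sit together with the scaffold proteins AIMP1, AIMP2 and EEF1E1 in the multisynthetase complex. The mitochondrial enzymes are made from separate nuclear genes, translated in the cytosol and imported, and they serve the few proteins encoded by mitochondrial DNA. When an amino acid runs short, uncharged transfer RNA activates the kinase GCN2 (gene EIF2AK4), translation of the transcription factor ATF4 rises, and ATF4 with C/EBP partners binds a composite element in many amino acid transporter, synthesis and synthetase genes. This element is called CARE here.

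The CARE letters searched were TGATGNAA, on both strands, in RefSeq promoter windows of 300 bases (250 before to 50 after the transcript start, GRCh38.p14, the same sequence as hg38). Windows were found for 30 of the 38 genes. Those without an entry included AARS2, LARS1, TARS3, VARS1, VARS2 and YARS1. A match was found in 8 of the 30 windows (26.7%), against 2.42% of 15308 coding-gene windows. When 500 bases on each side of the annotated gene start were searched instead, the letters were at 8 of 38 genes (21.1%), against 8.44% of coding genes. In the windows of 300 bases, a match occurred at 7 of 14 cytosolic genes (50%) and at 1 of 14 mitochondrial genes (7.14%), a description that was not tested. The sites are shown because CARE was, of the motifs searched, the one with the highest ratio between synthetase and coding-gene windows. Each is given as 30 bases on the strand of the match with the CARE letters in capitals.
AARS1: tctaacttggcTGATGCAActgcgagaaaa
CARS1: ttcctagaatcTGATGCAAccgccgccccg
GARS1: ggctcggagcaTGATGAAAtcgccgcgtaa
IARS1: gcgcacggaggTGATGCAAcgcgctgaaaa
MARS1: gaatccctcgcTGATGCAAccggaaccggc
NARS1: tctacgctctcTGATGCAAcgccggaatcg
TARS1: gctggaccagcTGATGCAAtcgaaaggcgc
YARS2: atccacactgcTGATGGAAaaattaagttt
The same 8 letters, TGATGCAA, stood in 6 of the 8 windows, all of them cytosolic genes. GARS1 and YARS2 each differed at the free position. The matches lie at chr16:70289686-70289693 (AARS1), chr11:3057418-3057425 (CARS1), chr7:30594845-30594852 (GARS1), chr9:92293703-92293710 (IARS1), chr12:57488064-57488071 (MARS1), chr18:57621815-57621822 (NARS1), chr5:33440967-33440974 (TARS1) and chr12:32756087-32756094 (YARS2).

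A PTBP1 peak lay within 1000 bases of the transcription start site (TSS, the 5-prime end of the annotated gene) at 16 of the 38 synthetase genes (42.1%, 95% Wilson interval 27.9 to 57.8). The same was true of 26.4% of all coding genes. A RUNX1 peak lay there at 15 genes (39.5%, interval 25.6 to 55.3), against 21.3% of coding genes. Both peaks were present at 12 genes (31.6%, interval 19.1 to 47.5), against 17.3%. All 3 shares lay above the share over coding genes, and each lower interval bound exceeded it by less than 5 percentage points. This ended for RUNX1 when the peak had to cover the first base of the gene (10 of 38, interval 15.0 to 42.0, against 15.5%), and for both peaks without genes that share a start (7 of 27, interval 13.2 to 44.7, against 14.1%). PTBP1 alone marked 4 genes (10.5%, against 9.045% of coding genes) and RUNX1 alone marked 3 (7.895%, against 3.978%). A further 19 genes had neither peak at the TSS, so that 50% of synthetase genes and 69.7% of coding genes had none. Read the other way, 75.0% of the 16 genes with a PTBP1 peak also had a RUNX1 peak, against 65.7% of coding genes with a PTBP1 peak. Of the 15 genes with a RUNX1 peak, 80.0% also had a PTBP1 peak, against 81.3%.

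**Figure D1:**
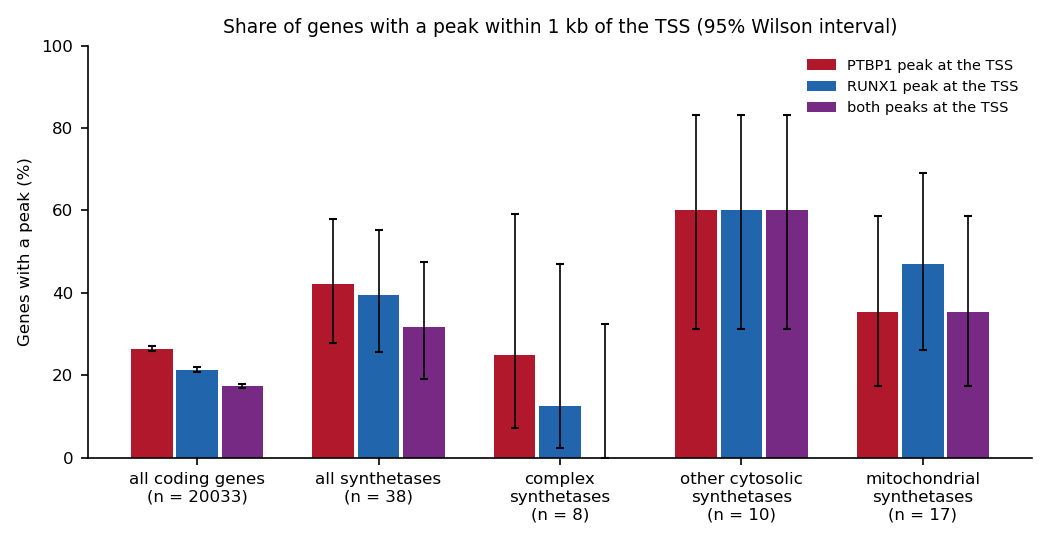
Percentage of genes (vertical axis) with a PTBP1 peak (red), a RUNX1 peak (blue) or both (purple) within 1000 bases of the TSS, for all coding genes, all 38 synthetases, the 8 synthetases of the multisynthetase complex, the other 10 cytosolic synthetases and the 17 mitochondrial synthetases, with bars as 95% Wilson intervals. The complex synthetases had no gene with both peaks, the other cytosolic synthetases had 6 of 10, and the intervals of the 2 groups overlap.

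In none of 3 comparisons did a difference between cytosolic and mitochondrial synthetases pass the test. A PTBP1 peak was present at 8 of 18 cytosolic genes (44.4%) and 6 of 17 mitochondrial genes (35.3%), a difference of 9.15 percentage points with a 95% interval from -21.6 to 37.4 (two-sided Fisher's exact p = 0.733, Benjamini-Hochberg adjusted p = 1.0 over the 3 comparisons). A RUNX1 peak was present at 7 of 18 cytosolic genes (38.9%) and 8 of 17 mitochondrial genes (47.1%), a difference of -8.17 points with an interval from -37.0 to 22.5 (two-sided Fisher's exact p = 0.738, adjusted p = 1.0). Both peaks were present at 6 of 18 (33.3%) and 6 of 17 (35.3%), a difference of -1.96 points with an interval from -30.9 to 27.2 (two-sided Fisher's exact p = 1.0, adjusted p = 1.0). The intervals are wide enough to hold differences of 20 points in either direction.

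The strongest synthetase peaks were at TARS1, the cytosolic threonyl-tRNA synthetase gene. Strength is the fold enrichment that the authors' peak caller gave at the summit, a ratio of fragments to background. It tells peaks apart within a list and not between the lists. At all synthetase start peaks except those of WARS1 the background was the usual value of the list, 0.72 fragments for PTBP1 and 0.33 for RUNX1. Fold enrichment and fragments are therefore the same measurement at these peaks. At TARS1 the PTBP1 peak (chr5:33439975-33441657) had a fold enrichment of 53.5 from 91 fragments, higher than 94.1% of the PTBP1 peaks at coding TSSs. The RUNX1 peak there (chr5:33440374-33441434) reached 35.3 from 46 fragments, higher than 87.7% of RUNX1 peaks at coding TSSs. Both summits lay 126 and 97 bases into the annotated gene, which was 143 and 172 bases upstream of the canonical transcript. The start of another annotated gene, TARS1-DT, lies within 1000 bases of both peaks. The CARE match of TARS1 lay inside both peaks, 148 bases from the PTBP1 summit and 177 from the RUNX1 summit.

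**Figure D2:**
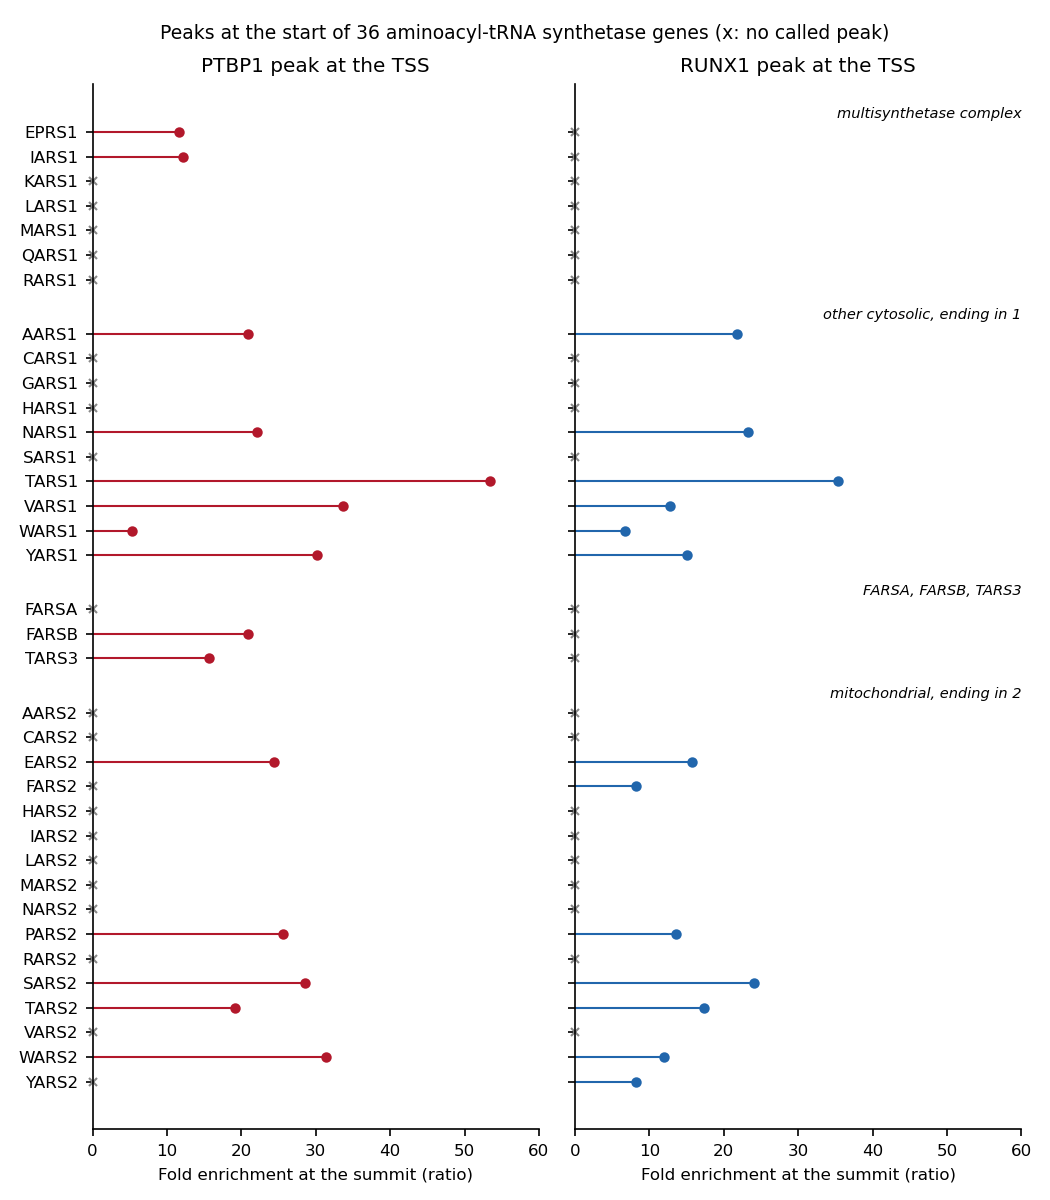
Fold enrichment at the summit (horizontal axis, ratio, from 0) of the PTBP1 peak (left) and the RUNX1 peak (right) at the TSS of 36 of the 38 synthetase genes (vertical axis, grouped by enzyme class), with a cross where no peak was called and the stronger peak where a list had several. TARS1 has the highest value in both panels, 53.5 and 35.3, and the 11 genes drawn with both peaks include 6 cytosolic and 5 mitochondrial ones.

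The other cytosolic genes with both peaks were VARS1, YARS1, NARS1, AARS1 and WARS1, the synthetases for valine, tyrosine, asparagine, alanine and tryptophan. The fold enrichment at VARS1 was 33.7 for PTBP1, from 57 fragments (chr6:31794837-31796374), and 12.8 for RUNX1, from 16 fragments (chr6:31795547-31796081). Both VARS1 summits lay just upstream of the start, at 31 and 54 bases. At YARS1 the values were 30.2 from 51 fragments (chr1:32817174-32817985) and 15.0 from 19 fragments (chr1:32817423-32817812). The YARS1 summits lay inside the annotated gene and 164 and 185 bases upstream of the canonical transcript, and the start of S100PBP lies within 1000 bases of both peaks. NARS1 and AARS1 were more even between the lists in rank, with PTBP1 values of 22.1 and 20.9 that exceeded 72.2% and 69.6% of coding TSS peaks, and RUNX1 values of 23.3 and 21.8 that exceeded 73.2% and 69.8%. At NARS1 the PTBP1 peak (chr18:57621690-57622340) held 37 fragments and the RUNX1 peak (chr18:57621760-57622304) held 30, with summits 189 and 90 bases upstream of the canonical transcript. At AARS1 the peaks (chr16:70288864-70289740 and chr16:70288864-70289696) held 35 and 28 fragments, and both summits lay within 3 bases of the canonical start. AARS1 had a second RUNX1 peak of 9.02, whose summit lay 697 bases upstream of the annotated start, and the AARS1 start lies near that of DDX19B, which runs in the other direction.

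WARS1 stood apart from the other 11. Its PTBP1 peak had a fold enrichment of 5.34 with 36 fragments at its summit (peak chr14:100375766-100376544), on a local background of 5.93 fragments where the list's usual value is 0.72. The RUNX1 peak (chr14:100376161-100376498) had 6.72 from 24 fragments on a background of 2.72, against the usual 0.33. Both summits were nearest to the start of the neighbouring gene WDR25, at 161 and 40 bases, and lay 910 and 1111 bases upstream of the canonical WARS1 transcript. For WARS1, a peak at the TSS therefore describes a region shared with another gene.

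The 6 mitochondrial genes with both peaks included WARS2, SARS2, PARS2, EARS2 and TARS2, the synthetases for tryptophan, serine, proline, glutamate and threonine. Their PTBP1 fold enrichments were 31.4, 28.5, 25.6, 24.4 and 19.2 in that order. Their RUNX1 values in the same order were 12.03, 24.1, 13.5, 15.8 and 17.3. The WARS2 summits, from 53 PTBP1 fragments (chr1:119140170-119141230) and 15 RUNX1 fragments (chr1:119140174-119140746), lay in intron 1, and an antisense gene, WARS2-AS1, starts nearby. The SARS2 summits, from 48 fragments (chr19:38930393-38930913) and 31 fragments (chr19:38930491-38930913), lay in coding exon 1. PARS2 had 43 PTBP1 fragments upstream of its start (chr1:54764488-54764896) and 17 RUNX1 fragments in its 5-prime UTR (chr1:54764426-54764775). The peaks of EARS2 (41 and 20 fragments, chr16:23557084-23558114 and chr16:23556905-23557829) and of TARS2 (32 and 22 fragments, chr1:150487231-150487611 and chr1:150487104-150487446) had their summits upstream of the canonical transcript. The order of strength thus differed between the lists, with WARS2 first of these for PTBP1 and SARS2 first for RUNX1. No mitochondrial synthetase had a PTBP1 peak alone (0 of 17, interval up to 18.4%, against 9.045% of coding genes). A RUNX1 peak alone was at 2 of 17 (11.8%, interval 3.29 to 34.3, against 3.978%), so both intervals hold the coding-gene share. The 2 were FARS2 (the mitochondrial phenylalanine enzyme) and YARS2 (tyrosine), each with a fold enrichment of 8.27 from 10 fragments. The FARS2 summit (peak chr6:5260800-5261339) was nearest to the start of the neighbouring gene LYRM4, 94 bases away, and the YARS2 summit (peak chr12:32756048-32756384) lay 313 bases upstream of YARS2. Another annotated gene starts within 1000 bases of the YARS2 peak. The FARS2 and YARS2 peaks both held fewer fragments than the median of 21 at coding TSSs.

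The 4 genes with PTBP1 alone were EPRS1, which makes the joined enzyme for glutamate and proline, IARS1 (isoleucine), FARSB, the beta subunit of the cytosolic phenylalanine enzyme, and TARS3, a second cytosolic threonine enzyme. Their fold enrichments were 11.6, 12.2, 20.9 and 15.7, from 19, 20, 35 and 26 fragments. The EPRS1 summit (peak chr1:220046245-220046657) lay 71 bases and the IARS1 summit (peak chr9:92293665-92294065) 50 bases upstream of the canonical transcript. The FARSB summit (peak chr2:222656033-222656421) lay 146 bases upstream of its start, and the TARS3 summit (peak chr15:101724130-101724692) lay in coding exon 1. FARSA, which makes the alpha subunit that pairs with FARSB, had no peak in either list.

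Genes with both peaks had stronger PTBP1 peaks than genes with PTBP1 alone, with medians of 25 over 12 peaks and 13.95 over 4 peaks. Over all coding genes the corresponding medians were 18.6 and 11.05. For RUNX1 the medians were 15.0 over 13 peaks at genes with both and 8.27 over 3 peaks at genes with RUNX1 alone, against 16.9 and 11.3 over coding genes. Across all 16 PTBP1 peaks at synthetase TSSs the median was 21.5, against 15.1 at coding TSSs, while across the 16 RUNX1 peaks it was 13.2, against 15.0. These medians were not tested.

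**Figure D3:**
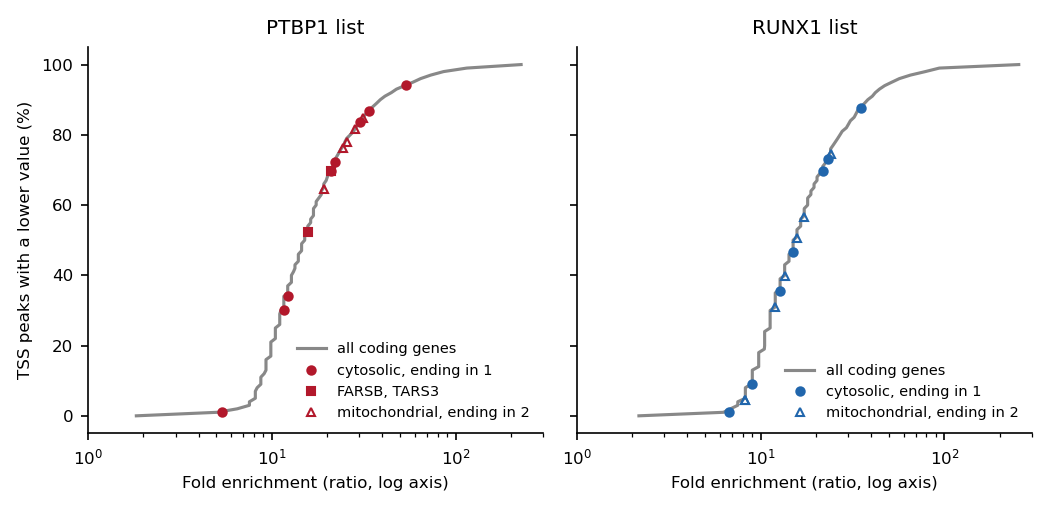
Percentage of peaks at coding TSSs with a lower fold enrichment (vertical axis) against fold enrichment (horizontal log axis, ratio) for PTBP1 (left) and RUNX1 (right), with the grey line for all coding genes and symbols for the peaks of 36 synthetases by class. PTBP1 peaks reach 94.1% at TARS1 and lie mostly in the upper part of the curve, and RUNX1 peaks spread along it from 1.10% at WARS1 to 87.7% at TARS1.

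In all 12 genes with both peaks a PTBP1 peak and a RUNX1 peak overlapped. Their summits were a median of 40.0 bases apart, from 3 bases at TARS2 to 204 bases at PARS2, and within 200 bases at 10 of 12 genes. The PTBP1 peak covered the annotated start itself in 14 of 16 cases, the exceptions being WARS1 and YARS1, and the RUNX1 peak did so in 10 of 16. As shares of genes, a PTBP1 peak covered the start at 36.8% of synthetase genes and 19.9% of coding genes. For RUNX1 these shares were 26.3% and 15.5%. Of the 16 summits in each list, 11 lay downstream of the annotated start and 5 upstream of it. The overlap, the distance between summits and the side of the start were not set beside coding genes, so none is a trait of synthetases here. The annotated start is the 5-prime end of the longest extent of a gene, and at AARS1, NARS1, TARS1, EARS2 and YARS1 the canonical transcript begins 201 to 673 bases further in, close to the summits.

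**Figure D4:**
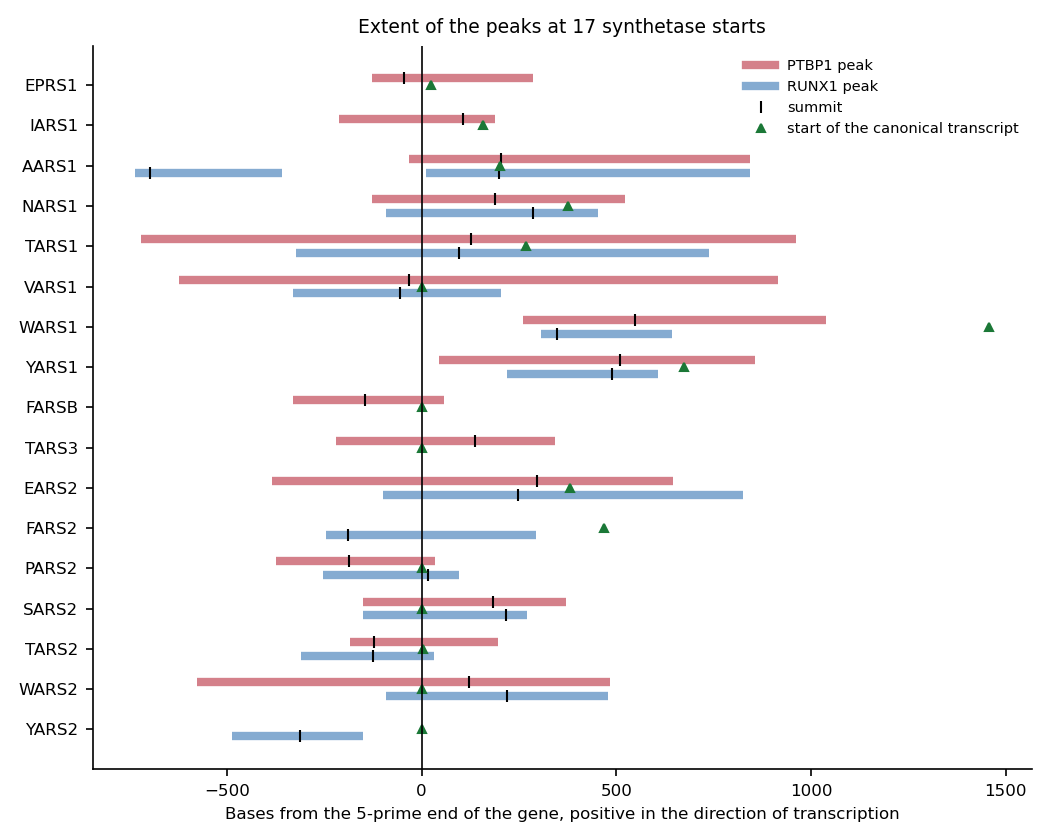
Extent of each PTBP1 peak (red) and RUNX1 peak (blue) at 17 of the 19 synthetase starts with a peak (vertical axis), in bases from the 5-prime end of the gene (horizontal axis, positive in the direction of transcription), with black ticks for summits and green triangles for the start of the canonical transcript. The 2 peaks overlap at all 11 genes drawn with both, and WARS1 is the gene whose canonical start lies furthest from its peaks.

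The promoters shown are those of the mitochondrial genes PARS2 and TARS2. Both genes have a start shared with no other coding gene, carry both peaks and hold ETS-type letters within those peaks. The cytosolic gene NARS1 also does and is not shown, with its match 85 bases from the PTBP1 summit and 14 from the RUNX1 summit. Each promoter shown is the 250 bases before the RefSeq start (GRCh38.p14) on the strand of the gene. Matches to CCGGAAG or its reverse complement are in capitals. PARS2 lies on the minus strand at chr1:54764524-54764773 and TARS2 on the plus strand at chr1:150487169-150487418.
PARS2: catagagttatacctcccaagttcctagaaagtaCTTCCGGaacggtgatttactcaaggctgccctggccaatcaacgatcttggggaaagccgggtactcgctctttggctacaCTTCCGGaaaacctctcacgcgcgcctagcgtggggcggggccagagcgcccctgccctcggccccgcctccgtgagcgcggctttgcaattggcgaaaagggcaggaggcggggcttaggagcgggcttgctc
TARS2: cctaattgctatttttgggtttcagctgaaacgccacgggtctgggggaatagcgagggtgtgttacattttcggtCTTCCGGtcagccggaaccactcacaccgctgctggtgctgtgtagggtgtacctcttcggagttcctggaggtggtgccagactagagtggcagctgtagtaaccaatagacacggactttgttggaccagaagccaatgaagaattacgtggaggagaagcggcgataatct
PARS2 holds 2 ETS matches, 26 and 56 bases from its PTBP1 summit and 230 and 148 bases from its RUNX1 summit, and both lie in the PTBP1 and RUNX1 peaks. TARS2 holds 1, at 45 bases from the PTBP1 summit and 42 bases from the RUNX1 summit.

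ETS factors are a large family of transcription factors common at the promoters of widely expressed genes. The letters CCGGAAG occurred on either strand in 14 of 30 synthetase windows (46.7%), against 14.8% of coding-gene windows, and equally in 7 of 14 cytosolic and 7 of 14 mitochondrial genes. HARS1 and HARS2, the histidine pair, share a start region, so their ETS matches are the same bases counted for both. The letters occurred in 5 of 14 windows of genes with a peak at the annotated start (35.7%) and in 9 of 16 windows of genes with neither (56.2%), which was not tested. The windows sit at the RefSeq start and not at the annotated gene start, so that CARS2, counted among the 9, has its match inside its body peaks, and SARS2, counted among the 5, has its match in no peak. The windows of 5 genes, CARS2, EARS2, NARS1, PARS2 and TARS2, held a match that lay inside both a PTBP1 and a RUNX1 peak. That was 35.7% of the 14, against 19.7% of 2260 coding-gene windows with ETS letters. Counting a match inside a peak of either list gave the same 5 of 14 (35.7%), against 38.9% of those coding-gene windows. For PTBP1 peaks the coding-gene share was 32.7% and for RUNX1 peaks 26.0%, and none of this was tested.

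CARE matches lay inside a called peak of either list at 6 of the 8 genes (75%), against 13.8% of the 370 coding-gene windows with CARE letters, a description that was not tested. A PTBP1 peak covered the match at AARS1, IARS1, MARS1, NARS1 and TARS1, and a RUNX1 peak covered it at AARS1, NARS1, TARS1 and YARS2. The match was nearest to a summit at IARS1, 41 bases from the PTBP1 summit. At CARS1 and GARS1 the match lay in no peak of either list.

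The letters bound by RUNX proteins, TGTGGT or TGCGGT on either strand, occurred in 9 of 30 synthetase windows (30.0%), against 18.6% of coding-gene windows. They occurred in 3 of 11 windows of genes with a RUNX1 peak (27.3%) and in 6 of 19 windows of genes without one (31.6%). HARS1 and HARS2, both among the 6, again count the same bases. The letters themselves lay inside a RUNX1 peak at 2 of the 9 genes, AARS1 and FARS2, at FARS2 458 bases from the summit. The same share over coding-gene windows was not computed. Within 50 bases of the summit, the letters were found at 3 of 16 RUNX1 peaks (18.8%), against 13.0% of the 3558 RUNX1 peaks at coding TSSs, and at 2 of 16 PTBP1 peaks (12.5%), against 6.90% of 4490. The sites near summits are shown because they are the synthetase starts with RUNX letters within 50 bases of a summit, as 30 bases on the strand of the match with the RUNX letters in capitals.
AARS1: agcgtggcgggtTGTGGTaggtcgtggtct
PARS2: gtgggctgggatTGCGGTaggtgaacgtgg
TARS3: acatccgctggcTGTGGTcggaggtcgagc
WARS1: gcttccggtgcgTGTGGTgagcggcgggcc
The AARS1 site (chr16:70289516-70289545) lies near both a PTBP1 and a RUNX1 summit. The PARS2 site (chr1:54764447-54764476) and the WARS1 site (chr14:100376489-100376518) lie near a RUNX1 summit, and the TARS3 site (chr15:101724297-101724326) lies near a PTBP1 summit at a gene with no RUNX1 peak. At the RUNX1 summits of the other synthetase genes these letters were not found within 50 bases.

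Stretches of 12 or more pyrimidines, on either strand, the kind of sequence that PTBP1 binds in RNA, were in 12 of 30 synthetase windows (40.0%), against 44.8% of coding-gene windows. They occurred in 4 of 12 windows of genes with a PTBP1 peak (33.3%). Within 50 bases of the summit a run was found at 1 of 16 PTBP1 peaks (NARS1), against 14.3% of PTBP1 peaks at coding TSSs. The core letters bound by NRF1, a regulator of nuclear genes for mitochondrial proteins, were searched as CGCATGCG and found at MARS2 only, 1 of 30 windows (3.33%), against 2.94%. The median GC content of the windows was 62.1%, against 63.7% over coding genes.

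**Figure D5:**
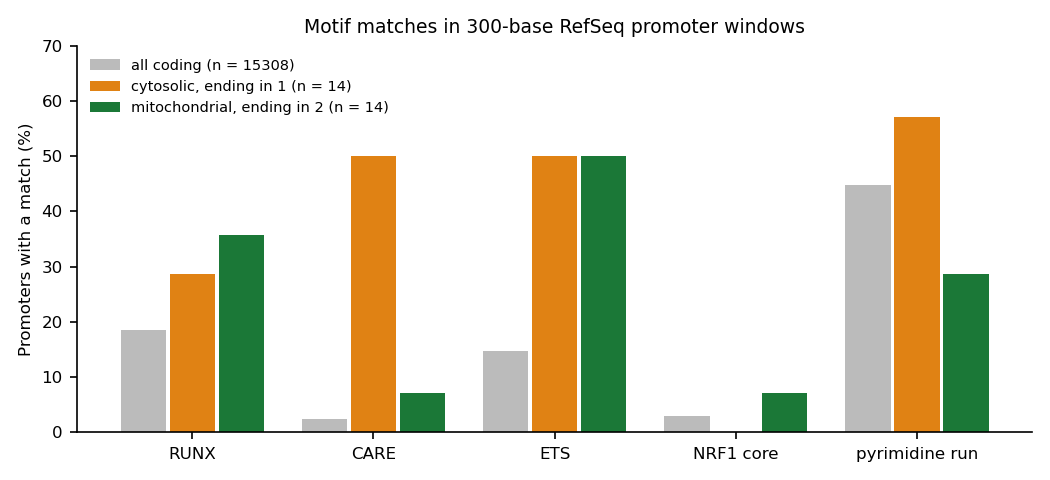
Percentage of 300-base promoter windows with a match (vertical axis) for each motif (horizontal axis), in all coding genes (grey, n = 15308), cytosolic synthetases (orange, n = 14) and mitochondrial synthetases (green, n = 14). CARE letters are in 50% of cytosolic and 7.14% of mitochondrial windows against 2.42% of all, and ETS letters are in 50% of both classes against 14.8%.

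Of the 8 cytosolic synthetases held in the multisynthetase complex, among them EPRS1, LARS1, IARS1, MARS1, QARS1, RARS1 and KARS1, none had both peaks (0 of 8, interval up to 32.4%, against 17.3% of coding genes). Peaks of a single list were present at 3 (37.5%, interval 13.7 to 69.4), including the PTBP1 peaks of EPRS1 and IARS1, with fold enrichments of 11.6 and 12.2. Over coding genes, 9.045% had PTBP1 alone, 3.978% had RUNX1 alone and 30.3% had a peak of either list. Among the other 10 cytosolic genes, 6 had both peaks (60%, interval 31.3 to 83.2, against the same 17.3%) and 4, CARS1, GARS1, HARS1 and SARS1, had neither. The intervals of the 2 groups overlap narrowly, and the difference was not tested.

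For 14 amino acids there are separate cytosolic and mitochondrial genes among the 38. Both genes carried both peaks for threonine and tryptophan. Neither gene carried a peak at its annotated start for arginine, cysteine, histidine, leucine and methionine. With the canonical transcript start instead, CARS2 (cysteine) had both peaks and MARS1 (methionine) had a PTBP1 peak. A peak was present at the cytosolic gene alone for alanine, asparagine, isoleucine and valine, and at the mitochondrial gene alone for serine. For tyrosine each gene had a peak but not of the same lists, since YARS1 had both while YARS2 had RUNX1 alone.

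Elsewhere in the gene body, a PTBP1 peak was present at 4 synthetase genes (10.5%, against 12.4% of coding genes) and a RUNX1 peak at 4 (10.5%, against 11.5%). Several of these lie at other transcript starts. In CARS2, the mitochondrial cysteine enzyme, a PTBP1 peak of 38.9 from 66 fragments (chr13:110705849-110707273) and a RUNX1 peak of 24.1 from 31 fragments (chr13:110705849-110706973) had summits 181 and 137 bases upstream of the canonical transcript, which begins 7487 bases inside the annotated gene. MARS1 (methionine) had a PTBP1 peak of 9.30 from 15 fragments (chr12:57487708-57488140) whose summit lay 83 bases upstream of its canonical transcript, and GARS1 (glycine) had a RUNX1 peak of 8.27 from 10 fragments (chr7:30593953-30594661) at 708 bases upstream of its own. With the canonical transcript start in place of the 5-prime end, PTBP1 peaks were at 18 genes, RUNX1 peaks at 17 and both at 13, against 27.5%, 22.4% and 18.2% of coding genes.

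The remaining body peaks were in AARS1 and VARS1. At the far end of AARS1, PTBP1 and RUNX1 peaks of 13.4 and 15.0 (chr16:70251151-70252068 and chr16:70251143-70252032) lay at the start of EXOSC6. At the far end of VARS1, peaks of 16.9 and 17.3 (chr6:31775326-31777594 and chr6:31776985-31777575) lay at the start of VWA7. VARS1 also had PTBP1 peaks of 11.05 in intron 25 (chr6:31780183-31780493, 18 fragments) and 8.72 in intron 19 (chr6:31781611-31781933, 14 fragments) of its canonical transcript, with no RUNX1 peak there and no other annotated start within 1000 bases.

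Another coding gene started within 1000 bases of 11 of the 38 synthetase starts. Both peaks were present at 5 of these 11 (45.5%, interval 21.3 to 72.0) and at 7 of the other 27 (25.9%, interval 13.2 to 44.7). Over coding genes the shares were 32.5% with a shared start and 14.1% without. Among the genes with a shared start, SARS2 lies beside MRPS12, a mitochondrial ribosomal protein gene, and EARS2 beside UBFD1, and both lists had a peak at each. AARS1 (beside DDX19B) and WARS1 (beside WDR25) had both as well, and FARS2 (beside LYRM4) had RUNX1 alone. Of the rest, 5 had no peak at the start, namely HARS1 and HARS2 beside each other, KARS1 beside TERF2IP, RARS2 beside ORC3 and CARS2 beside ING1. At the shared starts a peak there cannot be assigned to a single gene of the pair.

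The 19 genes with neither peak at the start were the cytosolic CARS1, GARS1, HARS1, KARS1, LARS1, MARS1, QARS1, RARS1 and SARS1, the mitochondrial AARS2, CARS2, HARS2, IARS2, LARS2, MARS2, NARS2, RARS2 and VARS2, and FARSA. At 16 of the 38 genes (42.1%, against 60.35% of coding genes) no peak of either list lay at the start or in the body. Among the 22 genes without a PTBP1 peak at the start, the nearest PTBP1 peak was a median of 61469 bases away, from 1758 to 484740 bases. For the 23 genes without a RUNX1 peak the median was 92895 bases, from 3753 to 1254553 bases. A gene listed without a peak had none that passed the authors' threshold, and weaker signal there was not detectable in lists of called peaks. The lowest PTBP1 summit held 11 fragments at coding TSSs and 19 at synthetase TSSs, and the lowest RUNX1 summit held 8 and 10.

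Among 12 partners of the synthetases, a PTBP1 peak was at the start of 3 (25%, against 26.4% of coding genes) and a RUNX1 peak at 0 (interval up to 24.2%, against 21.3%). The 3 were AIMP2, a scaffold of the multisynthetase complex (fold enrichment 13.4), AARSD1, which removes wrongly attached serine from alanine transfer RNA (12.8), and PSTK, a kinase on the path to selenocysteine (8.14). The other scaffolds AIMP1 and EEF1E1 had none, nor did QRSL1, GATB and GATC, the subunits that convert glutamate on mitochondrial glutamine transfer RNA.

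Among 14 genes of the amino acid response, a PTBP1 peak was at the start of 9 (64.3%, interval 38.8 to 83.7, against 26.4% of coding genes) and a RUNX1 peak at 7 (50%, interval 26.8 to 73.2, against 21.3%). Both were at 5 (35.7%, interval 16.3 to 61.2, against 17.3%), ATF4, DDIT3, CHAC1, SLC3A2 and EIF4EBP1. DDIT3, a transcription factor induced by the response, had the highest values, 86.0 for PTBP1 and 56.4 for RUNX1, above those of TARS1. At ATF4 itself the values were 26.7 and 9.77. CHAC1, which breaks down glutathione, had 11.05 and 13.5, SLC3A2, a subunit of amino acid transporters, had 13.4 and 32.3, and EIF4EBP1, a repressor of cap-dependent translation, had 22.1 and 21.1. PTBP1 peaks alone were at PSAT1 (11.6) and SHMT2 (14.5), enzymes of serine and glycine synthesis, and at the transporter gene SLC7A5 (10.5). PHGDH, the enzyme that starts serine synthesis, had a RUNX1 peak alone (9.02). ASNS, the asparagine synthetase that makes the amino acid used by NARS1, had a RUNX1 peak of 33.8 and no PTBP1 peak at its start. EIF2AK4, which encodes the sensor of uncharged transfer RNA, had a PTBP1 peak of 9.88 and no RUNX1 peak. TRIB3, SESN2 and SLC7A11 had no peak at the start in either list. TRIB3 had 3 peaks of each list elsewhere in its body, and SESN2 and SLC7A11 had none there.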

How the data were processed

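The authors mapped reads with Bowtie2 to the hg38 build, discarded poorly mapped and duplicate fragments, and used MACS3 at q = 1e-07 to call peaks. The submitters' processing notes also name bedtools 2.30.0. The 2 deposited lists name a target but no assay. They were taken as CUT&Tag, for which peak calling is described, and whether replicates were pooled is not stated. The deposited fold enrichment is a ratio of summit fragments to background, each with 1 added, and the deposited −log10 p-value and −log10 q-value give its significance. Fold enrichment and −log10 p-value were solved together for whole fragments (largest residual 0.00134). Library totals were not used.

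Peaks were placed within 1000 bases of GENCODE version 44 gene starts, or elsewhere in the gene body. Features are those of the canonical transcript. Shares carry 95% Wilson intervals, and the 3 contrasts a Newcombe interval and a two-sided Fisher's exact test. Neighbouring genes share peaks, so these p-values describe 2 lists and not cultures. The members, gene lists, motifs and comparisons were chosen with earlier results of these data known. Positions and fragments were printed for the 3 strongest start peaks per list and class, for genes with 1 list only, with body peaks or with shared starts. Counts cover all 38 genes, and the values of 2 of them are not reported here. Alternatives changed the window, start, threshold, gene classes and shared starts. The steps were tested on simulated data. Python 3.11.15, numpy 2.4.6, pandas 2.3.3, scipy 1.17.1, pysam 0.24.0 and matplotlib 3.10.9 were used.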

Additional observations from a re-analysis of the deposited data

How the results depend on the processing

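The counts of synthetase genes with a PTBP1 peak, a RUNX1 peak or both at the start were 16, 15 and 12. They stayed within 1.5 times of these with a window of 500 or 2000 bases and with the summit in the window. The same held with the canonical start and with a −log10 q-value of at least 10. With the gene's first base inside the peak they were 14, 10 and 9. That RUNX1 count was at the limit of 1.5 times, and its interval (15.0 to 42.0) held the share over coding genes (15.5%). Without the 11 genes with a shared start, RUNX1 peaks were at 9 of 27 genes (33.3%, against 17.9% of coding genes) and both peaks at 7 (25.9%, against 14.1%). With the first base inside the peak, the cytosolic minus mitochondrial difference for PTBP1 turned to -1.96 percentage points, and without GARS1 and KARS1 the difference for both peaks turned to 2.21. No adjusted p from Fisher's exact test passed 0.05 under any alternative, the lowest being 0.396. Body peaks away from every annotated start were at 2 genes for PTBP1 (5.26%, against 9.03% of coding genes) and 1 for RUNX1 (2.63%, against 8.97%). RUNX1 body peaks with the summit in the gene were at 2 (5.26%, against 11.2%). When 500 bases on each side of the gene start were searched, RUNX letters were at 24 of 38 genes (63.2%, against 51.8% of coding genes) and CARE letters at 8 of 38 (21.1%, against 8.44%). These windows are longer and start from another base. Otherwise the cause was not tested. No paired analysis was possible because each list is a single set of peaks with no replicate, and leaving out a replicate was not run for the same reason. The lowest summits of the lists held 11 (PTBP1) and 8 (RUNX1) fragments, and the effect of depth was not tested.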
